A study of Mus musculus with 12 samples.

Results

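The NF-kappa B subunits and inhibitors described here are 10 genes taken by name. The subunit genes are Nfkb1, Nfkb2, Rel, Rela and Relb. Those grouped by name as inhibitors are Nfkbia, Nfkbie, Nfkbiz, Bcl3 and Tnfaip3, though Nfkbiz encodes a cofactor of p50, as described below. All 10 were in the table of 16234 genes and all passed the filter on low counts, which left 12208 genes to be tested. RNA was measured in 12 libraries of bone marrow-derived mast cells (BMMCs), grown from the marrow of littermate wild-type (WT), Elk4 heterozygous (HZ) and Elk4 knockout (KO) mice on a C57BL/6N background, aged 6 to 12 weeks and of both sexes, with a conventional knockout allele. Marrow cells were kept in IL-3 and SCF for 4 to 8 weeks, until more than 80% of them carried both CD117 and the IgE receptor FcεRI. Each genotype gave 2 libraries of untreated cells and 2 of cells sensitized overnight with 0.5 µg/ml anti-DNP IgE and stimulated for 1 h with 100 ng/ml DNP-HSA, here called stimulated. Whether the untreated cells also received IgE is not stated in the sources used here. The labels do not say whether the libraries of a group came from separate mice or cultures, so p-values measure only the spread between these libraries. A difference between genotype labels therefore cannot be told apart here from a difference between mice or cultures.

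Counts of Elk4, the targeted gene, did not separate the genotypes as the labels name them. In untreated cells the WT libraries had 2426 and 2740 counts of it, the HZ libraries 3238 and 2837, and the libraries labelled KO 2613 and 2253. It was lower in KO-labelled than in WT untreated cells by 0.19 on the log2 scale (edgeR quasi-likelihood test, adjusted p = 0.00872) and higher in HZ than in WT by 0.24. The exon that the allele removes is not given in the sources used here, so counts over the whole gene may not read the deletion, and these libraries are called labelled KO throughout. The untreated libraries labelled KO stood apart in a mast cell marker, picked from 12 after its values were seen: Hdc, the histamine-forming enzyme, had 16.9 and 17.1 CPM (counts relative to the library total after TMM scaling) in untreated KO-labelled cells against 131 and 122 in WT and 114 and 104 in HZ. After stimulation Hdc had 316 and 290 CPM in KO-labelled cells, 440 and 432 in HZ and 1116 and 1106 in WT. Another of these markers, Mrgprb2, was higher in untreated KO-labelled cells (60.6 and 61.6 CPM) than in WT (36.1 and 33.0) and HZ (31.7 and 31.6). Neither marker is a check of the label.

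NF-kappa B proteins are dimers of 5 related subunits that bind short kappa B sites in the promoters and enhancers of immune genes. In resting cells inhibitor proteins of the I kappa B family hold them in the cytoplasm, and signals from antigen receptors, including FcεRI on mast cells, start a kinase cascade that removes these inhibitors. Several inhibitor genes are themselves NF-kappa B targets, which makes the pathway a loop that can switch itself off.

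Most of the members' promoter windows held letters that match the kappa B consensus. RefSeq promoter windows of GRCm38.p6, each of 300 bases (250 before and 50 after a transcription start), were matched by symbol for 7 of the 10 members (the authors' counts are on GRCm39, so the windows were used for their letters only). The kappa B consensus was found on either strand in at least 1 window of 6 of these 7 genes (Nfkb2, Rel, Nfkbia, Nfkbie, Bcl3 and Tnfaip3) and not in that of Rela, while 9.55% of all 27025 genes with a window held it. A match is a description of letters and not a measured site. The 140 bases up to the start are printed 5′ to 3′ on the strand of the gene for Nfkbia and Rel, which rose in each genotype, and for Tnfaip3 (the first of its 2 windows) and Nfkbie, which moved in different directions, with the kappa B matches in capitals.
Tnfaip3 (chr10:19015411-19015550, minus strand): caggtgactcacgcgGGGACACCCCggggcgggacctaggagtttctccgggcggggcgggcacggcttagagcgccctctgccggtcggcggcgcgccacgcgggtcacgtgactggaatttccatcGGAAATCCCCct
Nfkbia (chr12:55492648-55492787, minus strand): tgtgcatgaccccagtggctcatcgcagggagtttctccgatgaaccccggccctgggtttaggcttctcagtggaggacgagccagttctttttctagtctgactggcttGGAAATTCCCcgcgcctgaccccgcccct
Rel (chr11:23770970-23771109, minus strand): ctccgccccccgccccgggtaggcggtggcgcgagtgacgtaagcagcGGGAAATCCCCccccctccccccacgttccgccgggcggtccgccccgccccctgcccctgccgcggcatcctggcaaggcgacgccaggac
Nfkbie (chr17:45555560-45555699, plus strand): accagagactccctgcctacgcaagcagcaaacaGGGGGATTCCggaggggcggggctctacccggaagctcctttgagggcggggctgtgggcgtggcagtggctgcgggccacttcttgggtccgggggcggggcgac
The capitals lie 125 to 116 and 12 to 3 bases before the start in Tnfaip3, 29 to 20 in Nfkbia, 92 to 82 in Rel and 106 to 97 in Nfkbie. The Rel stretch is 11 bases long and holds overlapping matches.

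Library totals lay between 29697958 and 35531667 counts on genes, no library stood apart from its replicate, and levels are given as CPM unless said otherwise. Of 13 mast cell markers 12 were in the table, none at 0, and their summed level was 54128 to 66694 CPM in every library. Markers of other cells summed to 26.5 to 66.3 CPM for macrophages (Mrc1 and C1qa were at 0 in 5 of the 6 groups), 465 to 674 for basophils, 1511 to 2421 for erythroid and megakaryocyte genes, 438 to 537 for stromal genes, and at most 7.58 for dendritic cells, 0.537 for lymphocytes and 0.269 for neutrophils. The macrophage sum was lowest in untreated HZ (26.5 to 27.2) and higher after stimulation in each genotype, and the dendritic cell sum was higher in the WT libraries (4.31 to 7.58, all of it Itgax) than in all HZ and KO-labelled libraries (0.791 to 1.84). The part of both in the results below was not tested. Scaling by library totals in place of TMM put the median log2 difference after stimulation at −0.32 (WT), −0.24 (HZ) and −0.30 (KO-labelled). Under TMM these medians were −0.013, −0.005 and −0.007. The directions that scaling by library totals changed are given with the gene.

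Stimulation changed most of the NF-kappa B genes. Nfkbiz and Nfkbia had the largest differences in each genotype, followed in WT and HZ by the subunit Rel. In WT BMMCs 6 of the 10 genes rose (Nfkb1, Nfkb2, Rel, Relb, Nfkbia, Nfkbiz) and 2 fell (Nfkbie, Tnfaip3) at an adjusted p below 0.05. Of all genes tested 45.3% changed there, 22.4% upward and 22.9% downward, and this share of all genes is called the background below. In HZ BMMCs 6 members rose (background 32.9%) and 3 fell (31.6%), where 64.4% of all genes changed. In KO-labelled BMMCs 8 members rose (background 20.4%) and 1 fell (20.5%), where 40.8% of all genes changed. With the study's fold threshold of 2 added, the members that changed were 3 in WT (Rel, Nfkbia, Nfkbiz; background 6.77%), the same 3 genes in HZ (14.3%) and 7 in KO-labelled cells (6.61%), where Nfkb2, Relb, Tnfaip3 and Bcl3 were added. The median log2 difference of the 10 genes was 0.57 in WT, 0.56 in HZ and 1.21 in KO-labelled cells, where that of all genes tested was −0.01, 0.00 and −0.01. In bulk RNA, a change in the share of cells that use a gene and a change in RNA per cell cannot be told apart.

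**Figure D1:**
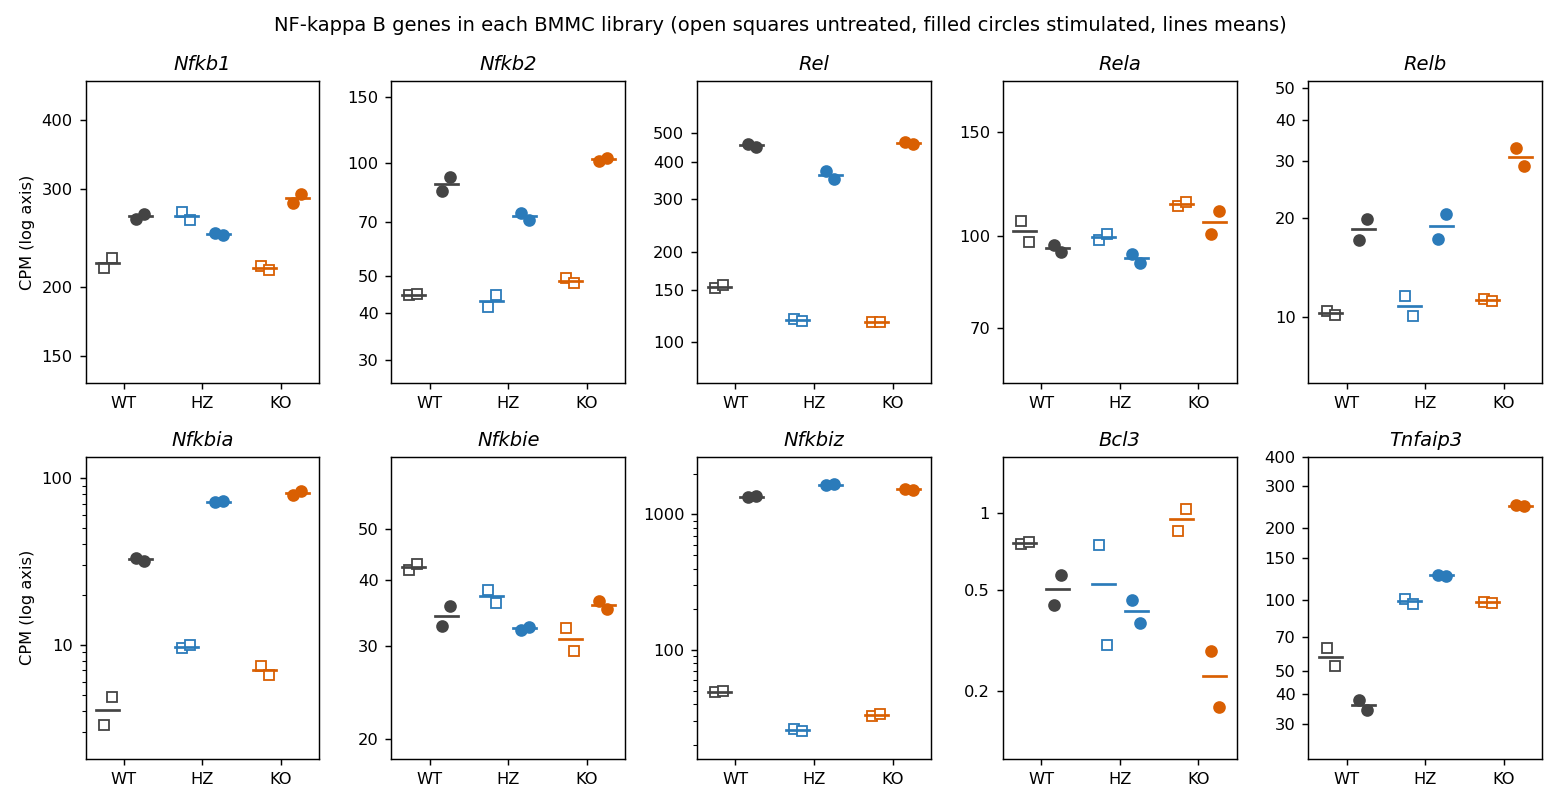
Level of each NF-kappa B gene in every library, as TMM-scaled CPM on a log axis, for BMMCs labelled WT, HZ and KO. Open squares are untreated and filled circles stimulated libraries, and lines are the means of 2. Nfkbiz, Nfkbia, Rel, Nfkb2 and Relb were higher after stimulation in each genotype, and Tnfaip3 was lower after it in WT and higher in HZ and KO.

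Rel (NCBI gene 19696) encodes c-Rel, a subunit with a transactivation domain that is known for cytokine gene induction in blood cells. It stood at 152 and 155 CPM in untreated WT libraries and at 461 and 450 after stimulation. In HZ it went from 119 and 118 to 373 and 351, and in KO-labelled cells from 117 and 117 to 466 and 459. The stimulated libraries were above the untreated ones in each genotype without overlap. Untreated HZ and KO-labelled libraries were all below WT, and after stimulation the WT and KO-labelled ranges overlapped while HZ stayed lower. The rise was 2.96-fold in WT (log2 1.57, adjusted p = 2.06e-37), 3.05-fold in HZ and 3.95-fold in KO-labelled cells.

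Nfkb2 (NCBI gene 18034) encodes p100, the precursor of the subunit p52, and Relb (NCBI gene 19698) its usual partner in the non-canonical arm of the pathway. Nfkb2 had 44.5 and 44.9 CPM in untreated WT and 84.6 and 91.8 after stimulation, 41.5 and 44.5 then 73.8 and 70.6 in HZ, and 49.5 and 47.9 then 102 and 104 in KO-labelled cells. Relb was scarcer, with 10.4 and 10.1 CPM in untreated WT and 17.1 and 19.98 after stimulation, 11.5 and 10.0 then 17.2 and 20.6 in HZ, and 11.3 and 11.2 then 32.9 and 28.8 in KO-labelled cells. The stimulated libraries of both genes exceeded the untreated ones in each genotype, and both KO-labelled stimulated libraries exceeded all others. Nfkb2 rose by 0.98, 0.75 and 1.07 on the log2 scale in WT, HZ and KO-labelled cells (adjusted p = 5.43e-20, 7.38e-16 and 8.02e-22). The rise of Relb was 0.85, 0.81 and 1.46 on the same scale (adjusted p = 2.45e-08, 3.06e-08 and 1.04e-15).

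Nfkb1 (NCBI gene 18033), which encodes p105 and its product p50, and Rela (NCBI gene 19697), which encodes p65, make up the classical dimer, and both moved little. Nfkb1 had 217 and 225 CPM in untreated WT and 265 and 271 after stimulation, 273 and 264 then 250 and 248 in HZ, and 218 and 214 then 284 and 294 in KO-labelled cells. Under TMM it was thus already at the stimulated WT level in untreated HZ cells. Scaled by library totals, untreated HZ lay above that level (296 and 285 against 240 and 245 in stimulated WT). Under TMM, Nfkb1 went down in HZ where it went up in the other genotypes. Its difference was 0.28 in WT (adjusted p = 1.69e-09), −0.11 in HZ (adjusted p = 0.00427) and 0.42 in KO-labelled cells (adjusted p = 1.34e-14) under TMM, but −0.027 in WT with library totals, where it did not pass. In HZ it also failed without HZ untreated replicate 1 (−0.084, adjusted p = 0.0682).

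Rela had 106 and 97.9 CPM in untreated WT and 96.4 and 94.1 after stimulation, 98.6 and 101 then 93.2 and 90.1 in HZ, and 113 and 114 then 101 and 110 in KO-labelled cells. Every stimulated library lay below the untreated libraries of its genotype, by a small margin. The log2 differences were −0.10 (WT, adjusted p = 0.0976), −0.12 (HZ, 0.0295) and −0.10 (KO-labelled, 0.0798), and leaving out 1 library moved each across the threshold: WT passed without WT untreated replicate 2 (−0.14, adjusted p = 0.0470), KO-labelled passed without KO stimulated replicate 2 (−0.17, 0.0201), and HZ failed without HZ stimulated replicate 2 (−0.094, 0.185) or HZ untreated replicate 2 (−0.10, 0.147). With library totals it passed in each genotype, at −0.41 in WT, −0.35 in HZ and −0.39 in KO-labelled cells.

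Nfkbiz (NCBI gene 80859) encodes I kappa B zeta, a nuclear I kappa B protein that works as a cofactor of p50 at a subset of inflammatory genes, among them Il6. It had 48.9 and 50.02 CPM in untreated WT and 1338 and 1359 after stimulation. In HZ the values were 26.4 and 25.3, then 1659 and 1665, and in KO-labelled cells 32.6 and 34.0, then 1545 and 1525. The untreated order was HZ below KO-labelled below WT and the stimulated order WT below KO-labelled below HZ, with no overlap at any step. Stimulation raised it 27.2-fold in WT, 64.2-fold in HZ and 46.1-fold in KO-labelled cells (log2 4.77, 6.01 and 5.53, with adjusted p = 1.03e-58, 1.07e-61 and 7.70e-61).

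Nfkbia (NCBI gene 18035) encodes I kappa B alpha, the classical cytoplasmic inhibitor that NF-kappa B resynthesizes after its own activation. It had only 3.29 and 4.83 CPM in untreated WT (109 and 169 counts) and 33.0 and 31.9 after stimulation. The HZ libraries had 9.56 and 9.89, then 71.5 and 73.2 CPM, and the KO-labelled libraries 7.47 and 6.57, then 79.2 and 84.1. All HZ and KO-labelled libraries exceeded the WT libraries of their state. The rise was 7.96-fold in WT, 7.44-fold in HZ and 11.6-fold in KO-labelled cells (log2 2.99, 2.90 and 3.54, with adjusted p = 3.22e-28, 4.34e-31 and 4.79e-34).

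Tnfaip3 (NCBI gene 21929) encodes A20, a ubiquitin-editing enzyme that ends signalling to NF-kappa B upstream of the inhibitor kinases. WT libraries had 62.7 and 52.6 CPM untreated and 37.9 and 34.2 after stimulation. HZ libraries had 101 and 95.8, then 128 and 126, and KO-labelled libraries 98.0 and 97.0, then 250 and 248. The gene thus fell in WT and rose in the other genotypes, and the stimulated groups did not overlap. The log2 differences were −0.67 in WT (95% interval −0.80 to −0.55, adjusted p = 2.65e-13), 0.36 in HZ (0.26 to 0.47, 2.76e-08) and 1.35 in KO-labelled cells (1.25 to 1.45, 1.12e-27). Each kept its sign with library totals, but the HZ difference was then 0.13 (adjusted p = 0.0209), and limma on log2 FPKM gave 0.13 with an adjusted p of 0.139 to 0.208.

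Nfkbie (NCBI gene 18037) encodes I kappa B epsilon, a cytoplasmic inhibitor that prefers c-Rel and p65 dimers. It had 41.8 and 42.8 CPM in untreated WT and 32.7 and 35.7 after stimulation, 38.2 and 36.2 then 32.2 and 32.5 in HZ, and 32.4 and 29.3 then 36.4 and 35.2 in KO-labelled cells. It fell in WT by 0.31 (log2, adjusted p = 0.000459) and in HZ by 0.20 (adjusted p = 0.0154), and rose by 0.21 in KO-labelled cells (adjusted p = 0.0177), where library totals turned the value to −0.075. The HZ call was lost without HZ stimulated replicate 1 (−0.19, adjusted p = 0.0733) or HZ untreated replicate 1 (−0.16, 0.127), and the KO-labelled call without KO stimulated replicate 1 (0.19, 0.116) or KO untreated replicate 2 (0.14, 0.241).

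Bcl3 (NCBI gene 12051), a nuclear I kappa B protein that pairs with p50 and p52 dimers, was close to the limit of detection. It had 25 and 27 counts in untreated WT and 13 and 17 after stimulation, 26 and 10 then 15 and 11 in HZ, and 32 and 37 then 8 and 5 in KO-labelled cells. Only in the KO-labelled cells did the fall pass (log2 −2.02, 95% interval −3.34 to −0.70, adjusted p = 0.0109), but it failed without KO stimulated replicate 2 (−1.71, adjusted p = 0.121) or KO untreated replicate 2 (−1.87, 0.0724). The WT and HZ differences were −0.59 and −0.34 (adjusted p = 0.445 and 0.651), and the KO-labelled response was not shown to differ from that of WT (−1.43, interval −3.23 to 0.37, adjusted p = 0.386).

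**Figure D2:**
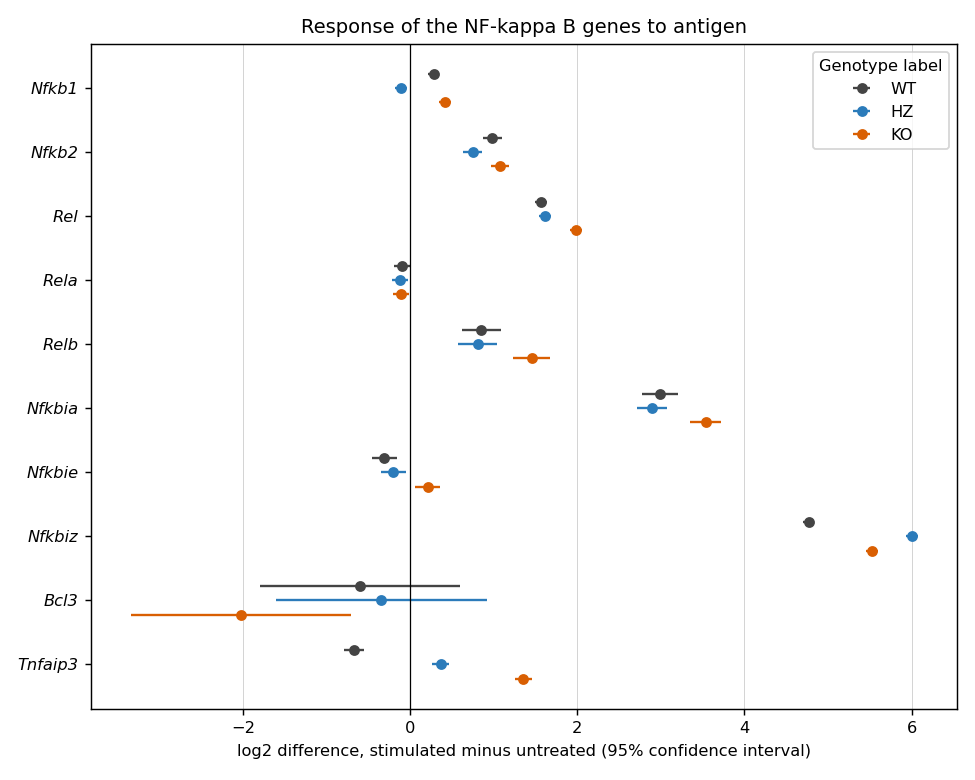
Log2 difference between stimulated and untreated BMMCs for each NF-kappa B gene in cells labelled WT, HZ and KO, with 95% confidence intervals from the edgeR fit to all 12 libraries. The points of Tnfaip3 lie at −0.67, 0.36 and 1.35, and the interval of Bcl3, the gene with the fewest counts, is the widest.

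Levels of different genes were compared per length, in the authors' FPKM. In untreated WT cells Nfkb1 led the 10 genes at 59.7 ± 1.88 FPKM (SD, n = 2), followed by Rela at 39.8 ± 2.11, Rel at 23.0 ± 0.368 and Nfkbie at 19.4 ± 0.408, while Nfkbia had 2.88 ± 0.784 and Bcl3 0.465 ± 0.00929. The next genes down, Nfkbiz at 14.3 ± 0.281 and Tnfaip3 at 13.5 ± 1.62, did not differ beyond their spread. Nfkb1 and Rela were also the leading genes in untreated HZ and KO-labelled cells, where Tnfaip3 came next with 22.3 ± 0.880 and 22.5 ± 0.194 FPKM.

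After stimulation Nfkbiz came first in each genotype, at 314 ± 3.30 FPKM in WT, 395 ± 0.852 in HZ and 357 ± 3.31 in KO-labelled cells. It then held 62.1%, 64.5% and 56.8% of the summed FPKM of the 10 genes. Tnfaip3 was at rank 8 of the 10 in stimulated WT (6.82 ± 0.488 FPKM), rank 6 in HZ (24.4 ± 0.368) and rank 4 in KO-labelled cells (47.0 ± 0.357), where it and Nfkbia (46.6 ± 1.98) did not differ beyond their spread.

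Among the 5 subunit genes, Rel took the place of Rela as the second most abundant transcript. Its share of their summed FPKM was 17.7% and 18.0% in the untreated WT libraries and 36.3% and 35.4% in the stimulated ones, and it went from 13.1% in both HZ libraries to 32.8% and 31.7%, and from 13.8% in both KO-labelled libraries to 34.6% and 33.2%. The share of Rela went over the same comparison from 32.0% and 29.7% to 19.8% and 19.3% in WT. The ranges of untreated and stimulated libraries did not overlap for either share, and Rel was lower in share than WT in every untreated HZ and KO-labelled library.

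**Figure D3:**
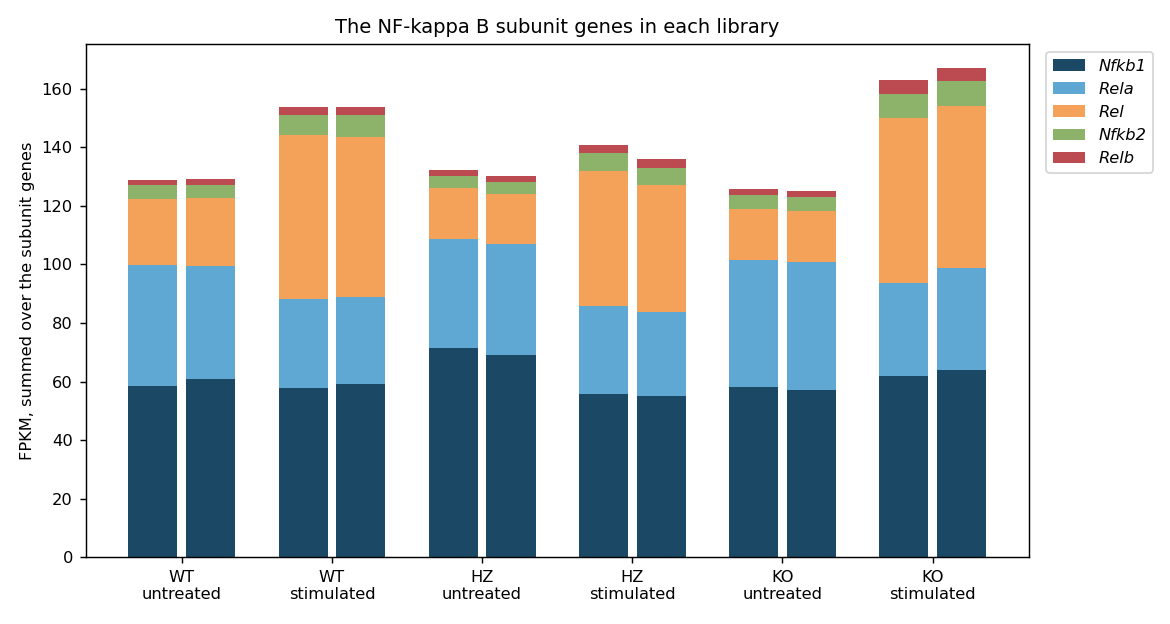
FPKM of the 5 NF-kappa B subunit genes stacked for each library, with the 2 libraries of a group side by side, so that bar height is their sum. Sums were 129 in both untreated WT libraries and 154 in both stimulated ones, and the segment of Rel widened after stimulation in each genotype. FPKM is scaled by library totals, under which the median gene was lower after stimulation.

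Untreated cells labelled HZ or KO differed from WT in both directions, with Nfkbia and Tnfaip3 higher and Nfkbiz, Rel and Nfkbie lower. In HZ 6 of the 10 genes differed from WT at an adjusted p below 0.05 (background 51.4%): 3 were higher (25.4% of all genes) and 3 lower (26.0%). In KO-labelled cells 6 differed (background 44.6%), 3 higher (22.9%) and 3 lower (21.7%). These shares lay near those of all genes. With the fold threshold of 2, only Nfkbia in HZ passed (background 9.15%), and none in KO-labelled cells (7.51%). Both comparisons share the WT libraries. Nfkbia was higher by 1.25 in HZ and 0.78 in KO-labelled cells on the log2 scale (adjusted p = 3.76e-12 and 1.57e-06) and Tnfaip3 by 0.77 and 0.76 (adjusted p = 5.23e-17 and 1.25e-16). Nfkbiz was lower, at −0.94 in HZ and −0.57 in KO-labelled cells (adjusted p = 5.39e-25 and 1.15e-17), as were Rel at −0.37 and −0.39 (1.41e-12 and 4.23e-13) and Nfkbie at −0.18 and −0.45 (0.0277 and 8.67e-07).

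Nfkb1 was higher only in untreated HZ (0.28, adjusted p = 8.59e-10) and Rela only in untreated KO-labelled cells (0.15, 0.00715). The direct comparison of KO-labelled with HZ cells also separated both genes (Nfkb1 −0.31, adjusted p = 9.20e-11; Rela 0.19, adjusted p = 0.00109), among 6 members that passed it (background 45.2%), 3 higher (23.4%) and 3 lower (21.8%), none of them by 2-fold (3.36%). The Rela difference from WT was lost without KO untreated replicate 2 (0.14, adjusted p = 0.0540) or WT untreated replicate 2 (0.10, 0.186), and that of Nfkbie in HZ without HZ untreated replicate 2 (−0.15, 0.163) or either WT untreated library (−0.20 and −0.17, 0.0613 and 0.119). The others that passed were Nfkbiz (0.36) and Nfkb2 (0.18), higher in KO-labelled cells, and Nfkbia (−0.47) and Nfkbie (−0.27), lower in them. The Nfkb2 difference was lost without HZ untreated replicate 1 (0.13, adjusted p = 0.150) or KO untreated replicate 1 (0.16, 0.0851), and that of Nfkbie without KO untreated replicate 2 (−0.20, 0.0773). That of Nfkbia was −0.38 with an adjusted p of 0.0506 in limma on log2(FPKM + 1) without a filter.

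**Figure D4:**
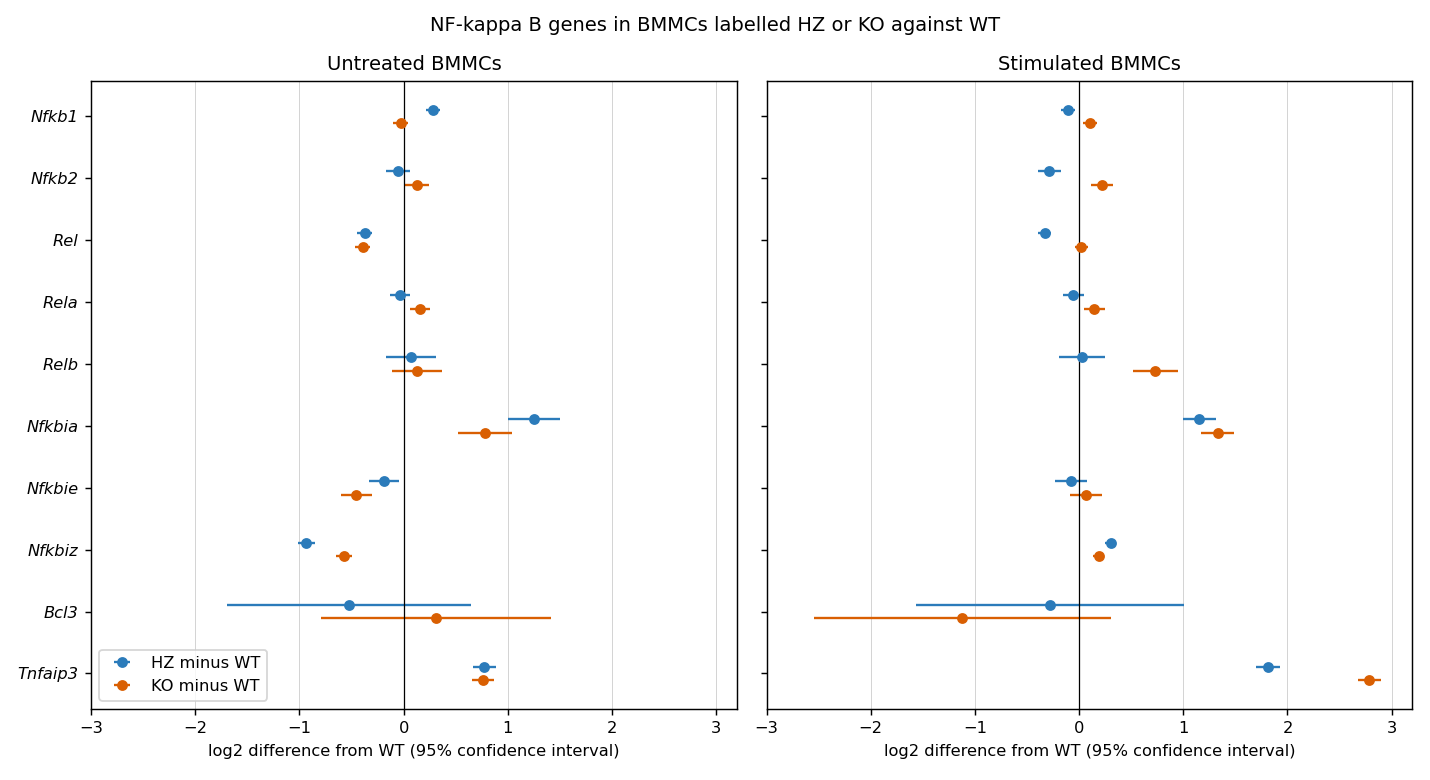
Log2 difference of each NF-kappa B gene between BMMCs labelled HZ or KO and WT, untreated on the left and stimulated on the right, with 95% confidence intervals from the edgeR fit. Tnfaip3 stood at 0.77 and 0.76 above WT in untreated cells and at 1.81 and 2.79 in stimulated cells, and Nfkbiz went from below to above WT.

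After stimulation 7 of the 10 genes were higher in KO-labelled than in WT cells and none lower, where 40.4% of all genes tested differed, 21.2% being higher and 19.2% lower. Tnfaip3 was 6.90-fold higher (log2 2.79, 95% interval 2.67 to 2.90, adjusted p = 1.10e-37), Nfkbia 2.51-fold (1.33, 2.02e-19) and Relb 1.66-fold (0.73, 1.60e-07), and these 3 passed the study's threshold of 1.5-fold (background 12.7%). The rest were small: Nfkb2 by 0.22 (adjusted p = 0.000865), Nfkbiz by 0.19 (4.19e-08), Rela by 0.15 (0.0140) and Nfkb1 by 0.11 (0.00977). Of these, Nfkb1 and Rela did not pass without KO stimulated replicate 2 (0.080 for both, adjusted p = 0.161 and 0.340). Leaving out a WT stimulated library also ended a call, replicate 1 for Nfkb2 (0.16, 0.0565) and Nfkb1 (0.090, 0.104) and replicate 2 for Rela (0.13, 0.0955).

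Stimulated HZ cells differed from WT in 6 members (background 34.9%), 3 higher (18.4%) and 3 lower (16.5%), and 2 of them were past the 1.5-fold threshold (7.89%). Tnfaip3 was 3.51-fold higher (log2 1.81, adjusted p = 1.48e-29), Nfkbia 2.23-fold (1.16, 5.74e-17) and Nfkbiz 1.23-fold (0.30, 1.08e-13). The subunits Rel (−0.33, adjusted p = 9.20e-12), Nfkb2 (−0.29, 3.44e-05) and Nfkb1 (−0.11, 0.0111) were lower. The Nfkb1 difference failed without HZ stimulated replicate 2 (−0.10, 0.0718) or WT stimulated replicate 2 (−0.088, 0.121).

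KO-labelled against HZ stimulated cells gave 7 members (background 24.9%), 6 higher (12.9%) and 1 lower (12%). Past 1.5-fold (5.32%) were Tnfaip3 (1.96-fold, log2 0.97, adjusted p = 8.42e-21) and Relb (1.63-fold, 0.71, 7.09e-07). All 5 subunit genes were higher in KO-labelled cells, with Nfkb2 at 0.51, Rel at 0.35, Nfkb1 at 0.21 and Rela at 0.20 on the log2 scale, and Nfkbiz was lower (−0.11, 0.000458). The Rela difference failed without KO stimulated replicate 2 (0.13, adjusted p = 0.127).

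The size of the response itself was compared between genotypes by an interaction term. KO-labelled cells differed from WT in 6 of the 10 genes, each with a larger log2 difference than in WT, where 9.27% of all genes tested differed, 5.44% with a larger and 3.83% with a smaller value. Tnfaip3 differed most, by 2.03 (4.07-fold, 95% interval 1.87 to 2.18, adjusted p = 1.27e-25), and only it passed the fold threshold of 2 (background 0.704%). Nfkbiz followed at 0.76 (3.81e-18), Relb at 0.60 (0.00895), Nfkbia at 0.55 (0.0150), Nfkbie at 0.52 (0.000364) and Rel at 0.41 (6.14e-09). Under TMM, Tnfaip3 and Nfkbie fell in WT and rose in KO-labelled cells. Untreated KO-labelled cells were below WT in Rel (−0.39), Nfkbie (−0.45) and Nfkbiz (−0.57). After stimulation Nfkbiz was above WT by 0.19. Rel (0.02, edgeR adjusted p = 0.622) and Nfkbie (0.07, 0.510) were then not shown to differ from WT. The Nfkbia call rested on single libraries: it was 0.21 (adjusted p = 0.593) without WT untreated replicate 2, 0.46 (0.103) without KO untreated replicate 2 and 0.50 (0.0558) without KO stimulated replicate 2. That of Relb was lost without KO stimulated replicate 1 (0.51, 0.0781) or WT stimulated replicate 1 (0.50, 0.0753). Under limma on log2 FPKM the adjusted p reached 0.198 for Nfkbia and 0.073 for Relb, and in edgeR Nfkb1 (0.14, 0.0666) passed without WT untreated replicate 1 (0.16, 0.0492).

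HZ cells differed from WT in the response of 4 genes (background 38.5%), 2 higher (19.9%) and 2 lower (18.6%), a share near that of all genes. Nfkbiz (1.24, 95% interval 1.14 to 1.33, adjusted p = 3.06e-26) and Tnfaip3 (1.04, 0.88 to 1.20, 2.82e-15) had the higher values, and these 2 passed the fold threshold (5.99%). Tnfaip3 changed sign, from −0.67 in WT to 0.36 in HZ. Nfkb1 (−0.39, 3.28e-09) and Nfkb2 (−0.23, 0.0187) had the lower values. Under TMM, Nfkb1 also changed sign, from 0.28 in WT to −0.11 in HZ. Nfkb2 failed without HZ stimulated replicate 2 (−0.20), HZ untreated replicate 2 (−0.19), WT stimulated replicate 2 (−0.17) or WT untreated replicate 1 (−0.23). The difference of the KO-labelled from the HZ response, tested after the other results were seen, passed for 8 genes (background 41.5%). Of these 7 were higher (20.2%) and Nfkbiz lower (21.3%), by −0.48 (adjusted p = 2.38e-11). Among the 7, Tnfaip3 stood at 0.99, Relb at 0.65, Nfkbia at 0.64 and Nfkb1 at 0.53.

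The genes whose log2 CPM ran most alike over the 12 libraries were found for Nfkbiz, Rel and Nfkbia, the members that rose most in each genotype. They were Il6 and Hbegf for Nfkbiz (Pearson r = 0.999 for both), Ero1a and Fdx1 for Rel (0.997 for both), and Atf6 (0.993) and Ddx3x (0.988) for Nfkbia. Atf6 and Ddx3x moved far less than Nfkbia in WT (0.30 and 0.55 on the log2 scale against 2.99). These are descriptions over 6 groups that share one stimulus.

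The rest of the pathway was read from 3 lists. Like the members, these were chosen with earlier results of these data known, so their counts beside the background are descriptions only. The kinases and adaptors upstream of NF-kappa B changed in WT in 21 of 31 genes tested, 10 higher (background 22.4%) and 11 lower (22.9%), around a median of 0.01, against 45.3% of all genes. Ripk2, the kinase of the NOD receptors, went from 29.5 and 28.0 CPM to 143 and 144 (log2 2.32, adjusted p = 2.57e-34), and Malt1, the protease that links antigen receptors to the inhibitor kinases, from 203 and 219 to 512 and 499 (1.26, 5.71e-33). Traf5, an adaptor of TNF-family receptors, rose by 0.70 (2.76e-08), and Map3k14, the kinase of the non-canonical arm, fell by 0.72 (0.000189). The medians in HZ and KO-labelled cells were −0.19 and 0.04.

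Other NF-kappa B inhibitors and negative regulators changed in 10 of 21 genes in WT, a share near the 45.3% of all genes, with 7 higher (background 22.4%) and 3 lower (22.9%), around a median of 0.10. Nfkbid, which encodes the nuclear inhibitor I kappa B NS, rose more than any of the 10 members, from 51.9 and 47.0 CPM to 2114 and 2200 (log2 5.45, adjusted p = 9.38e-59), and by 6.90 in HZ and 6.60 in KO-labelled cells. Zc3h12a, an RNase that degrades cytokine mRNA, rose by 1.82 (9.88e-28), Tax1bp1, a partner of A20, by 0.85 (4.27e-32) and Nfkbil1 by 0.82 (1.26e-10).

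NF-kappa B target genes changed in 22 of 25 genes tested in WT (29 of 32 listed were in the table), 19 higher (background 22.4%) and 3 lower (22.9%), around a median of 2.59. In HZ 18 rose (background 32.9%) and 5 fell (31.6%), and in KO-labelled cells 20 rose (20.4%) and 3 fell (20.5%), with medians of 2.75 and 2.65. Tnf went from 6.37 and 6.75 CPM to 4324 and 4452 in WT (log2 9.38, adjusted p = 3.91e-64), to 4258 and 4466 in HZ and to 3363 and 3433 in KO-labelled cells. Ptgs2, the inducible cyclooxygenase, went from 1.99 and 3.94 CPM to 757 and 740 in WT (7.96, 4.03e-52). Unlike Tnf, stimulated Ptgs2 was higher than in WT in both HZ (1026 and 1032 CPM) and KO-labelled cells (1019 and 1018). Csf2 had no count in either untreated WT library and 694 and 778 counts after stimulation, at least 281-fold higher against a floor of 3 counts per library, and the chemokine gene Cxcl2 had 1 count in each untreated WT library and 134 and 89 after stimulation.

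**Figure D5:**
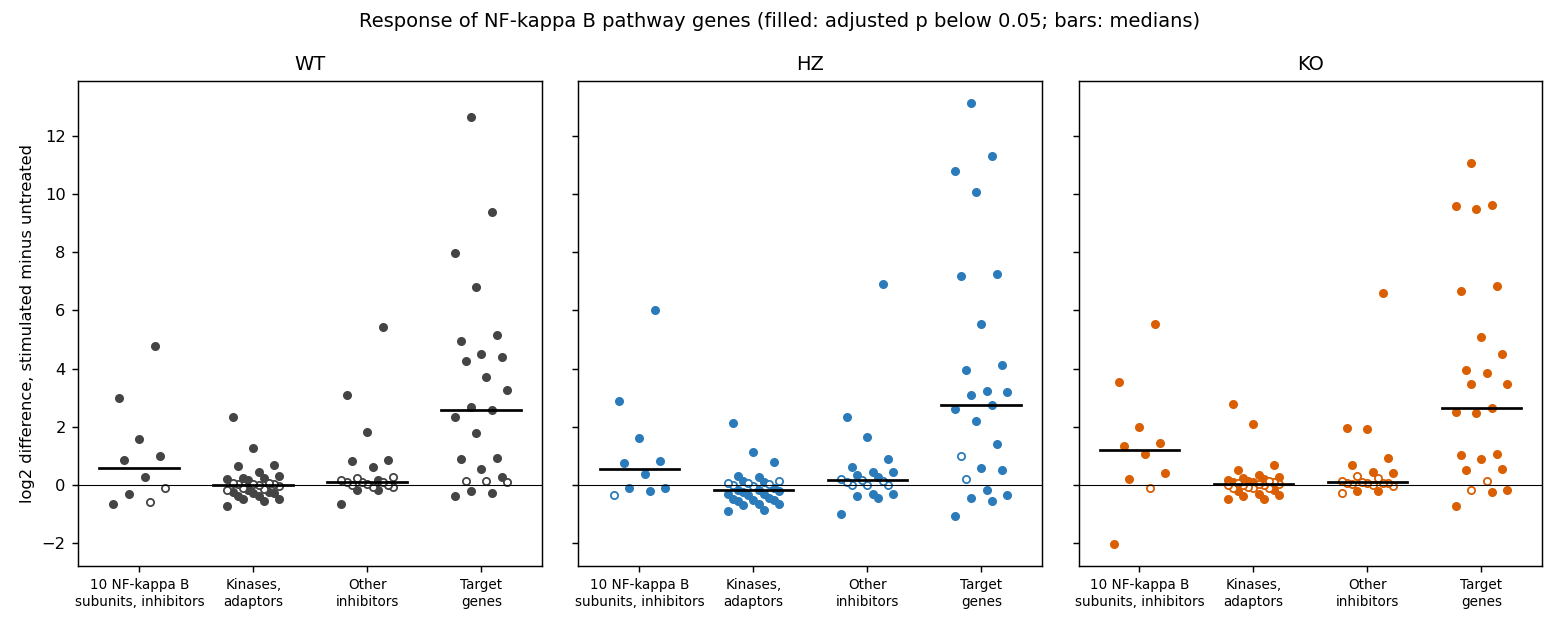
Log2 difference between stimulated and untreated BMMCs of the 10 subunit and inhibitor genes and of 3 lists of other pathway genes, in cells labelled WT, HZ and KO. Filled points passed an adjusted p below 0.05 in edgeR, open points did not, and bars are medians, which for the target genes lay at 2.59, 2.75 and 2.65. Points of genes without counts in untreated cells, such as Csf2, depend on the prior count of the fit.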

How the data were processed

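The authors trimmed reads with fastp, aligned them with HISAT2 to GRCm39 and counted them with HTSeq, as the submitters' processing notes name these tools, and deposited raw counts and FPKM values per gene for all 12 libraries. The labels gave the groups. Counts were fitted with edgeR 4.0.16 in R 4.3.3 (filterByExpr, TMM, quasi-likelihood test, a mean for each of 6 groups), and two-sided p-values were adjusted by the Benjamini-Hochberg method over 12208 genes. The fold thresholds, from the study, were 2 or 0.5 and, between stimulated genotypes, 1.5 or 0.66. The code was tested on simulated data. DESeq2 1.42.0 and limma 3.58.1 on log2 FPKM were alternatives. Likeness used log2 CPM with a prior count of 2. Named pathway genes were, in each list, the 4 with the largest WT response among those with an adjusted p below 0.05, non-overlapping groups and 100 or more counts on average in the group with more. The members and lists were chosen with earlier results of these data known. Replicate numbers were not used to pair libraries, as the labels do not say what they stand for. The biological coefficient of variation was 4.01%, which sets the precision with 2 libraries per group.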

Additional observations from a re-analysis of the deposited data

Results flagged for a closer look

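The response to stimulation differed from that of WT past the threshold of edgeR's interaction test in 10 cases, given as the log2 difference in HZ or KO-labelled cells minus that in WT. In HZ they were Nfkb1 (−0.39, adjusted p = 3.28e-09), Nfkb2 (−0.23, adjusted p = 0.0187), Nfkbiz (1.24, adjusted p = 3.06e-26) and Tnfaip3 (1.04, adjusted p = 2.82e-15). In KO-labelled cells they were Nfkbia (0.55, adjusted p = 0.0150), Nfkbie (0.52, adjusted p = 0.000364), Nfkbiz (0.76, adjusted p = 3.81e-18), Rel (0.41, adjusted p = 6.14e-09), Relb (0.60, adjusted p = 0.00895) and Tnfaip3 (2.03, adjusted p = 1.27e-25). No test for a deviating library was run on groups of 2.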

How the results depend on the processing

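Over 26 alternative settings, 180 of 200 counts of members stayed within 1.5 times the value reported. The other 20 came from adding the study's fold threshold, with the prior count of the fit or with one of 2: 3 members in the WT response, 3 in the HZ response, 1 in untreated HZ against WT, 0 in untreated KO-labelled cells against WT and 0 against HZ, 2 in stimulated HZ against WT, 3 in stimulated KO-labelled cells against WT and 2 against HZ, and 2 (HZ) and 1 (KO-labelled) in the interactions. Of single log2 differences, 8 reversed: Nfkb1 in WT was −0.027 and Nfkbie in KO-labelled cells −0.075 with library totals, and in limma on FPKM under each of 3 settings Nfkb1 was −0.027 and Nfkbie −0.072 to −0.068, where FPKM is itself scaled by library totals. A further 172 lost and 14 gained a call, and 1773 stayed on their side of the threshold, 41 of them with another sign in a difference that passed in neither setting. Leaving out 1 library gave 8 to 9, 7 to 8 and 7 to 9 members in the WT, HZ and KO-labelled responses, 5 to 6 in each untreated comparison, 5 to 6, 5 to 7 and 6 to 7 in stimulated HZ against WT, KO-labelled against WT and KO-labelled against HZ, and 3 to 4 (HZ) and 5 to 7 (KO-labelled) in the interactions. When 1 library of a group was left out, the lone library was assumed to vary like those of the other groups. The difference of replicate 1 from replicate 2 within a group, gene by gene, had correlations of −0.04 to 0.06 between groups. They gave no sign of a pairing by replicate number, and cannot exclude one. With the replicate number as a block, the counts were 8, 9 and 9 in the responses and 4 and 6 in the interactions. No count of members changed. Bcl3 gave no value under a minimum of 10 counts in every library or a mean FPKM of at least 0.5.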
